A study of Mus musculus with 12 samples.

Results

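The genes described here are Csrp2 and 9 contractile and cytoskeletal genes of the serum response factor (SRF) program, Csrp1, Acta2, Tagln, Cnn1, Myl9, Tpm1, Tpm2, Srf and Vcl, which make up 10 of the 55335 genes counted. All 10 were found by symbol. Csrp2 was chosen by its measured level, which was higher in midostaurin-treated than in vehicle-treated tumors, so its values in that comparison are a description with no test. The other 9 were listed for what they encode. The question was whether Csrp2 moved together with the other smooth muscle and SRF target genes or without them. RNA was sequenced from 4 groups of 3 libraries: subcutaneous CT26 tumors given midostaurin at 40 mg/kg from day 7 after inoculation for 2 weeks, CT26 tumors given vehicle, cultured CT26 cells given 1 µM midostaurin for 48 h, and CT26 cells given the solvent DMSO. CT26 is a mouse colorectal cancer line, labelled WT in genotype for the cells, and midostaurin is an inhibitor of several kinases. The strain, age and sex of the host mice are not given in the sources used here. Since the labels do not state that replicates are separate cultures or animals, p-values measure only the spread between these libraries, which may be technical.

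SRF is a transcription factor that binds CArG boxes, short sites with a core of A and T between CC and GG. With cofactors of the myocardin family (myocardin, and MRTF-A and MRTF-B, of which the MRTFs sense the pool of free actin) it drives genes of the contractile apparatus and of focal adhesions, and with the ternary complex factors of the ELK family it drives immediate early genes. Csrp1 and Csrp2 encode LIM-domain proteins that bind actin-associated partners, and Csrp2 is known from vascular smooth muscle, hepatic stellate cells and invasive cancer cells. Acta2, Tagln, Cnn1 and Myl9 mark smooth muscle cells, pericytes and myofibroblasts, which in a tumor belong to the host stroma, while Tpm1, Tpm2, Vcl and Srf are active in many cell types.

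The promoters show whether the members carry the SRF site close to a start site. RefSeq promoter windows (build GRCm38.p6), each running from 250 bases before to 50 bases after a start site, were matched for 8 of the 10 members, in 9 windows. Csrp2 and Tagln were not matched. A CArG box lay in the windows of 3 members, Myl9, Srf and Vcl, and in 1.63% of all 32851 windows of the same length. A CArG box with 1 G or C in its core lay in the windows of Acta2 and Myl9, and in 8.5% of all windows. The MCAT motif (CATTCC on either strand, a site of TEAD factors) lay in the windows of Acta2, Tpm1 and Vcl, and in 14.7% of all windows. The windows of Csrp1, Cnn1 and Tpm2 held none of these motifs. A match describes the sequence only. A window without a match does not show that the gene lacks such sites, since no sequence outside the windows was searched. The 4 windows with either form of the CArG box are printed 5′ to 3′ on the strand of the gene, with each match in capitals. For Acta2 both matches carry 1 other base in the core, for Myl9 the first match is a CArG box and the second carries 1 other base, and for Srf and Vcl all matches are CArG boxes. The windows are chr19:34255324-34255623 on the minus strand for Acta2, chr2:156775214-156775513 on the plus strand for Myl9, chr17:46556113-46556412 on the minus strand for Srf and chr14:20929148-20929447 on the plus strand for Vcl.
Acta2: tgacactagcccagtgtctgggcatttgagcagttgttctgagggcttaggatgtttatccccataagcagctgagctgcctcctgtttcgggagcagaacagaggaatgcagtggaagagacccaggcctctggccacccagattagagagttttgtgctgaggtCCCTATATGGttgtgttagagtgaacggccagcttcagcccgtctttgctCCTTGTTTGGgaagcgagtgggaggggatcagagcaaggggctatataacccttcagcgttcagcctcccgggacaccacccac
Myl9: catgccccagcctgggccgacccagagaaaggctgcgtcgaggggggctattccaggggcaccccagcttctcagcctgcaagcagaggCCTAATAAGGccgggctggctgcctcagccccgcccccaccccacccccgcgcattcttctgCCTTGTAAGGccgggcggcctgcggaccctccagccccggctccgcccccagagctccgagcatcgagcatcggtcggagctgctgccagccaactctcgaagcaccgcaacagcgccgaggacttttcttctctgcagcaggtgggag
Srf: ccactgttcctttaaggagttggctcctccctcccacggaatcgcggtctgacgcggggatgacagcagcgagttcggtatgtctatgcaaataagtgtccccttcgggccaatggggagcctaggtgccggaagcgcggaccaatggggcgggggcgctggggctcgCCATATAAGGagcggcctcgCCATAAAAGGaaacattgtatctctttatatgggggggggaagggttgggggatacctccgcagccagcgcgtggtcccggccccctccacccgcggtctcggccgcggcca
Vcl: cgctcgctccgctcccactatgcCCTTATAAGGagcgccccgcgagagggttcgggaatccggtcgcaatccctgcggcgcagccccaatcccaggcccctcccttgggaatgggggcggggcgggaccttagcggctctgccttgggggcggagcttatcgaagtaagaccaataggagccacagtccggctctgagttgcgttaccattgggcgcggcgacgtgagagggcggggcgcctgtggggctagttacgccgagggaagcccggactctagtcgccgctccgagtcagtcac
The matches began 84 and 34 bases before the start site in Acta2, 161 and 99 bases before it in Myl9, 82 and 62 bases before it in Srf, and 227 bases before it in Vcl.

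Library totals were 33399701 to 48109497 counts in tumors and 34787389 to 38144039 in cells. Levels are given as CPM, read counts scaled to library size with TMM factors computed over all 12 libraries. Several libraries stood apart. Among cells, number 1 of both treatments lay apart from numbers 2 and 3, and same-numbered libraries of the 2 treatments lay closest together. Midostaurin tumor 3 had a summed level of 8 neutrophil markers of 691 CPM, against 15 to 38.8 CPM in the other 5 tumors, and midostaurin tumor 3 and vehicle tumor 1 had the highest sums of 12 skeletal muscle markers, 77.5 and 46 CPM, against 2.65 to 9.05 CPM in the other tumors. Epithelial markers went both ways in cells. Of 9 listed, 3 had no count in any cell library, Epcam among them, and Cdh1 reached at most 0.109 CPM. The keratin genes Krt18 and Krt20 measured 22.7 to 29.6 CPM and 9.68 to 53.2 CPM, and Cdx2 0.852 to 2.23 CPM. In bulk RNA, fewer cells of a type and less RNA per cell cannot be told apart.

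Csrp2 (ENSMUSG00000020186, mm10 chr10:110919789-110939622, plus strand) measured 111, 110 and 107 CPM in midostaurin tumors 2, 3 and 4, against 28.1, 37.6 and 39.6 CPM in vehicle tumors 1, 2 and 3. The groups did not overlap, and the midostaurin tumors lay within a few CPM of each other. The means were 109 ± 2.42 CPM in midostaurin tumors and 35.1 ± 6.16 CPM in vehicle tumors (SD, n = 3 each), a ratio of 3.11 and a log2 fold change of 1.65 ± 0.14 (SE). These values chose the gene and are printed without a test. Leaving out any 1 tumor library gave log2 fold changes of 1.52 to 1.75.

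In cells, where the drug effect played no part in the choice of Csrp2, the gene measured 10.8, 7.98 and 7.27 CPM with midostaurin and 13.0, 7.53 and 7.15 CPM with DMSO. Number 1 was highest under both treatments, and the groups overlapped fully. The log2 fold change was -0.09 ± 0.29 (edgeR quasi-likelihood test, adjusted p = 1), and -0.06 ± 0.11 with the replicate number as a block (adjusted p = 0.994). The tumor effect minus the cell effect was 1.73 on the log2 scale, again without a test because it contains the contrast that chose the gene.

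**Figure D1:**
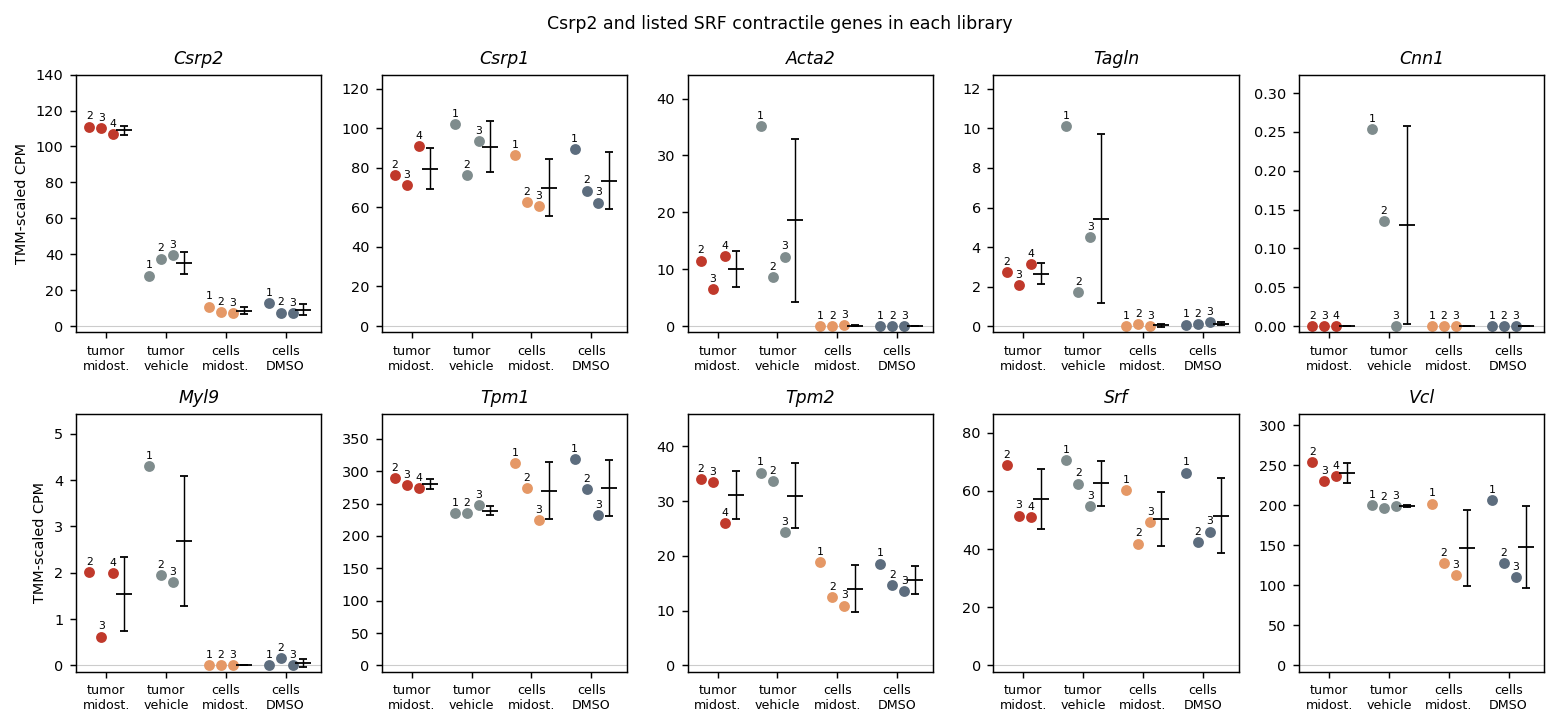
TMM-scaled CPM (y axis, own scale per gene) of each member in each library of the 4 groups, with the library number beside each point and the group mean ± SD (n = 3) as a bar to the right of the points. Csrp2 sits at 107 to 111 CPM in midostaurin tumors and 28.1 to 39.6 CPM in vehicle tumors, and Acta2, Tagln, Myl9 and Cnn1 sit at or close to 0 in all cell libraries.

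Of the other 9 members, 8 had enough counts to be tested in tumors, and edgeR called none of them, while 2, Vcl and Tpm1, had an unadjusted p below 0.05, as did 19.9% of all genes tested (10.5% higher and 9.43% lower). DESeq2 called the same 2, both higher, and limma-voom called none. Over all genes tested in tumors, edgeR called 0.0435% and DESeq2 called 8.86%, or 5.36% in the higher direction. Since the drug contrast in tumors was the one that chose Csrp2, no reading is made of the members' count against these shares. The median log2 fold change of the 8 tested members was -0.15, beside -0.01 over all 16094 genes tested. The groups did not overlap for Vcl and Tpm1, both higher with midostaurin, and 13.1% of all genes tested lay apart in that direction.

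Vcl (ENSMUSG00000021823, chr14:20929398-21033676, plus strand) encodes vinculin, which links actin to integrin and cadherin adhesions. It measured 254, 230 and 236 CPM in midostaurin tumors, against 200, 197 and 199 CPM in vehicle tumors. All treated tumors were above all vehicle tumors, by a log2 fold change of 0.28 ± 0.07 (edgeR adjusted p = 0.124, DESeq2 adjusted p = 0.0151). The means were 240 ± 12.2 CPM in midostaurin tumors and 199 ± 1.45 CPM in vehicle tumors (SD, n = 3 each). Its exons share 2090 bases with those of Ap3m1 on the other strand. Ap3m1 measured 74.1 to 77.6 CPM in midostaurin tumors and 72.7 to 81.2 CPM in vehicle tumors, and with the strand setting of the counting not given, reads of the shared stretch cannot be assigned with certainty.

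Tpm1 (ENSMUSG00000032366, chr9:67022590-67049406, minus strand) encodes a tropomyosin, which winds along actin filaments. It measured 289, 278 and 274 CPM in midostaurin tumors, against 235, 235 and 248 CPM in vehicle tumors, again with no overlap. The log2 fold change was 0.23 ± 0.07 (edgeR adjusted p = 0.154, DESeq2 adjusted p = 0.0277). The log2 differences of Vcl and Tpm1 were a small part of the 1.65 of Csrp2. EdgeR called neither gene in any fit that left out 1 tumor library. Those fits called only 0 to 1 of all genes tested, so that result says little about Vcl and Tpm1.

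Tpm2 (ENSMUSG00000028464, chr4:43514711-43523765, minus strand), the tropomyosin gene with the more muscle-restricted use, measured 34.0, 33.4 and 26.0 CPM in midostaurin tumors, against 35.2, 33.7 and 24.3 CPM in vehicle tumors. The groups overlapped, and the log2 fold change was 0.01 ± 0.17 (edgeR adjusted p = 0.978). Srf itself (ENSMUSG00000015605, chr17:46548329-46556175, minus strand) measured 69.0, 51.5 and 51.1 CPM in midostaurin tumors and 70.5, 62.5 and 54.7 CPM in vehicle tumors. The overlap was again broad, with a log2 fold change of -0.12 ± 0.15 (edgeR adjusted p = 0.697). Csrp1 (ENSMUSG00000026421, chr1:135720061-135752232, plus strand), the closest relative of Csrp2 among the members, measured 76.2, 71.1 and 91.0 CPM in midostaurin tumors and 102, 76.4 and 93.6 CPM in vehicle tumors. Its log2 fold change was -0.18 ± 0.14 (edgeR adjusted p = 0.51), with overlapping groups.

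The smooth muscle markers lay at low levels and were uneven among the vehicle tumors. Acta2 (ENSMUSG00000035783, chr19:34241090-34255590, minus strand), smooth muscle alpha actin, measured 11.5, 6.49 and 12.3 CPM in midostaurin tumors, against 35.1, 8.64 and 12.2 CPM in vehicle tumors. Vehicle tumor 1 stood far above all other tumors, which overlapped between the groups. The log2 fold change was -0.87 ± 0.53 (edgeR adjusted p = 0.408), and it was -0.03 without vehicle tumor 1.

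Tagln (ENSMUSG00000032085, chr9:45929619-45936058, minus strand), which encodes the actin-bundling protein SM22 alpha, measured 2.75, 2.08 and 3.15 CPM in midostaurin tumors and 10.1, 1.71 and 4.49 CPM in vehicle tumors. Vehicle tumor 1 was again the highest and vehicle tumor 2 the lowest of all 6. The log2 fold change was -1.02 ± 0.58 (edgeR adjusted p = 0.377), and -0.21 without vehicle tumor 1. Its exons share 1241 bases with those of the antisense gene Gm48529 and 108 bases with those of Pcsk7. Gm48529 measured 2.00 to 2.47 CPM in midostaurin tumors and 2.00 to 3.04 CPM in vehicle tumors. That is close to the level of Tagln in midostaurin tumors, so part of the Tagln reads in tumors may not be assigned with certainty. In cells Gm48529 measured 1.26 to 1.85 CPM with midostaurin and 1.29 to 2.65 CPM with DMSO, where Tagln reached at most 0.199 CPM.

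Myl9 (ENSMUSG00000067818, chr2:156775420-156781658, plus strand), a regulatory myosin light chain, measured 2.01, 0.621 and 2.00 CPM in midostaurin tumors and 4.31, 1.95 and 1.80 CPM in vehicle tumors. The single highest value was once more that of vehicle tumor 1, and the lowest was that of midostaurin tumor 3. The log2 fold change was -0.78 ± 0.54 (edgeR adjusted p = 0.466), and -0.26 without vehicle tumor 1. Cnn1 (ENSMUSG00000001349, chr9:22099216-22109630, plus strand), calponin 1, had 0 counts in every midostaurin tumor and 10, 5 and 0 counts in vehicle tumors 1, 2 and 3, too few for a test. No count in a library leaves a level of up to 3 counts possible by counting error.

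**Figure D2:**
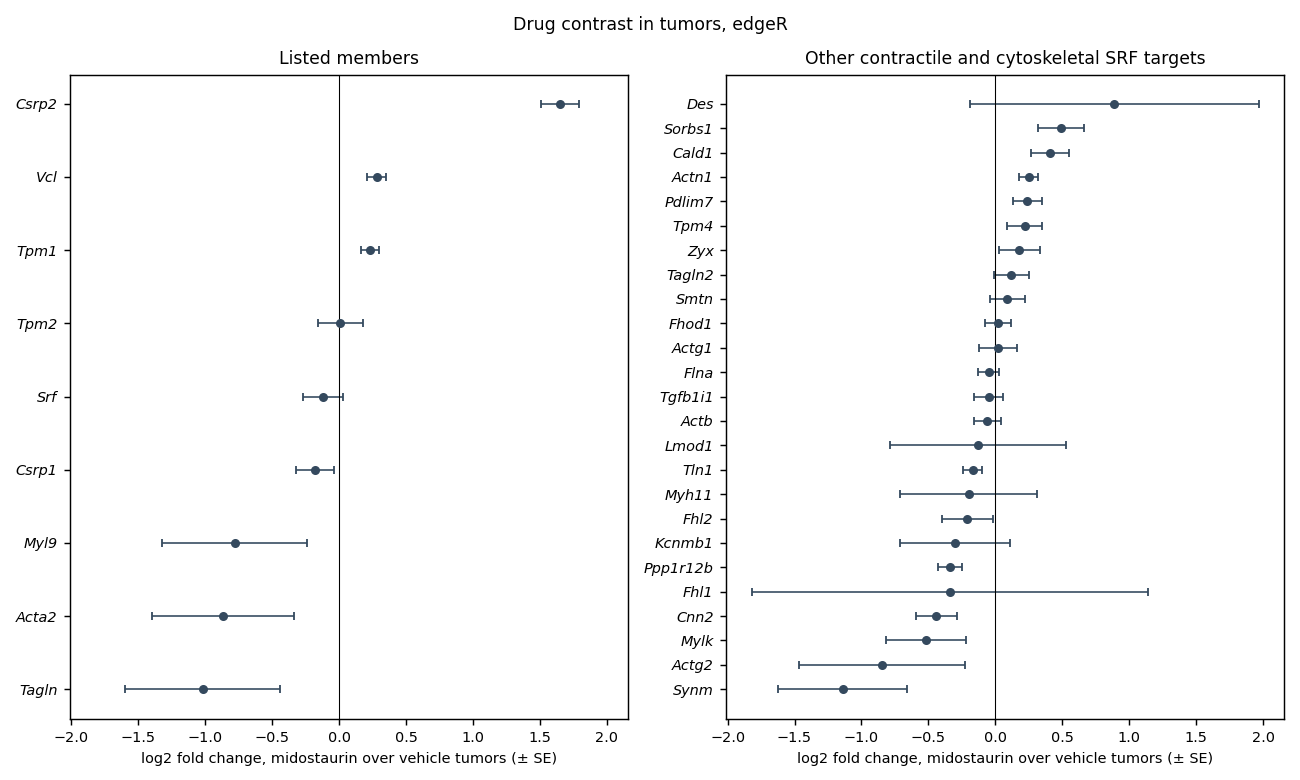
Log2 fold change of midostaurin over vehicle tumors with its SE (x axis) for the 9 members that could be tested (left) and for 25 further contractile and cytoskeletal SRF targets (right), ordered by value. Csrp2, chosen by this contrast and at 1.65, lies to the right of all genes in both panels, and Tagln, Acta2 and Myl9 lie left of 0 with wide errors.

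Levels of host cell markers were set beside those of the members. The summed level of 9 pericyte markers was 87, 119 and 130 CPM in midostaurin tumors 2, 3 and 4, and 195, 164 and 115 CPM in vehicle tumors 1, 2 and 3. The sum of 11 fibroblast markers was 1620, 2100 and 2760 CPM in midostaurin tumors, against 4670, 2010 and 1760 CPM in vehicle tumors. Vehicle tumor 1, the highest for Acta2, Tagln and Myl9, thus had the highest pericyte and fibroblast sums. It also had the highest sum of 9 endothelial markers, 158 CPM, where midostaurin tumors had 68.8 to 128 CPM and the other vehicle tumors 78.8 and 103 CPM. Csrp2 ran the other way, with its lowest tumor value in vehicle tumor 1. EdgeR called none of the 8 pericyte, 11 fibroblast or 9 endothelial markers tested in the drug contrast, where 3 pericyte markers, all lower, 2 fibroblast markers, 1 in each direction, and 0 endothelial markers had an unadjusted p below 0.05, and DESeq2 called 2 pericyte markers lower (Cspg4 and Ndufa4l2) and 1 fibroblast marker higher (Dcn). The sum of 10 macrophage markers was 334, 820 and 698 CPM in midostaurin tumors, against 1310, 918 and 1210 CPM in vehicle tumors, so these groups lay apart, in the direction opposite to Csrp2. EdgeR called none of the 10 macrophage markers, 3 had an unadjusted p below 0.05, all lower, and DESeq2 called 3 lower. Trem2, a lipid receptor gene of macrophages, had the smallest p of that list, at 11.6 to 18.0 CPM in midostaurin tumors and 25 to 33 CPM in vehicle tumors (log2 fold change -0.89 ± 0.19, edgeR adjusted p = 0.0936). The 6 epithelial markers tested had a median log2 fold change of -0.82 and went both ways. Cdx2, an intestinal transcription factor gene with the smallest p of that list, measured 0.311 to 0.585 CPM in midostaurin tumors and 0.812 to 2.00 CPM in vehicle tumors (edgeR adjusted p = 0.134), and Krt20, an intestinal keratin gene, 424 to 682 CPM in midostaurin tumors and 177 to 380 CPM in vehicle tumors (edgeR adjusted p = 0.143, DESeq2 adjusted p = 0.00382). EdgeR called none of the 8 skeletal muscle, 5 neutrophil or 6 epithelial markers tested, and 0 skeletal muscle markers, 3 neutrophil markers, all higher, and 2 epithelial markers, 1 higher and 1 lower, had an unadjusted p below 0.05. DESeq2 called Krt20 alone among them. All of these marker counts stand beside 19.9% of all genes at an unadjusted p below 0.05, and 5.36% called higher and 3.5% called lower by DESeq2. In cells the pericyte markers Kcnj8, Abcc9 and Higd1b and the fibroblast markers Postn and Thy1 had no counts. Other markers were present there: Col1a2 measured 732 to 1260 CPM in midostaurin cells and 734 to 1260 CPM in DMSO cells. The fibroblast sum was 825 to 1560 CPM in midostaurin cells and 826 to 1540 CPM in DMSO cells. For pericyte markers it was 17.7 to 43.7 CPM and 17.5 to 41.2 CPM. Both lists thus hold genes that cultured CT26 cells also express. The part of these cell types in the members' values was not tested.

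Centring each gene on its own mean over the 6 tumors, on the scale of log2(CPM + 0.5), shows how the members varied among libraries. Csrp2 lay at 0.78 to 0.85 in the midostaurin tumors and at -1.12 to -0.63 in the vehicle tumors. Acta2, Tagln and Myl9 instead peaked in vehicle tumor 1, at 1.47, 1.44 and 1.00. For Tpm2, Srf and Csrp1 all 6 tumors lay between -0.34 and 0.27 with no split by treatment. Only Vcl and Tpm1 shared the split of Csrp2 among these 9 genes, at 0.08 to 0.22 in midostaurin tumors and -0.15 to -0.06 in vehicle tumors.

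**Figure D3:**
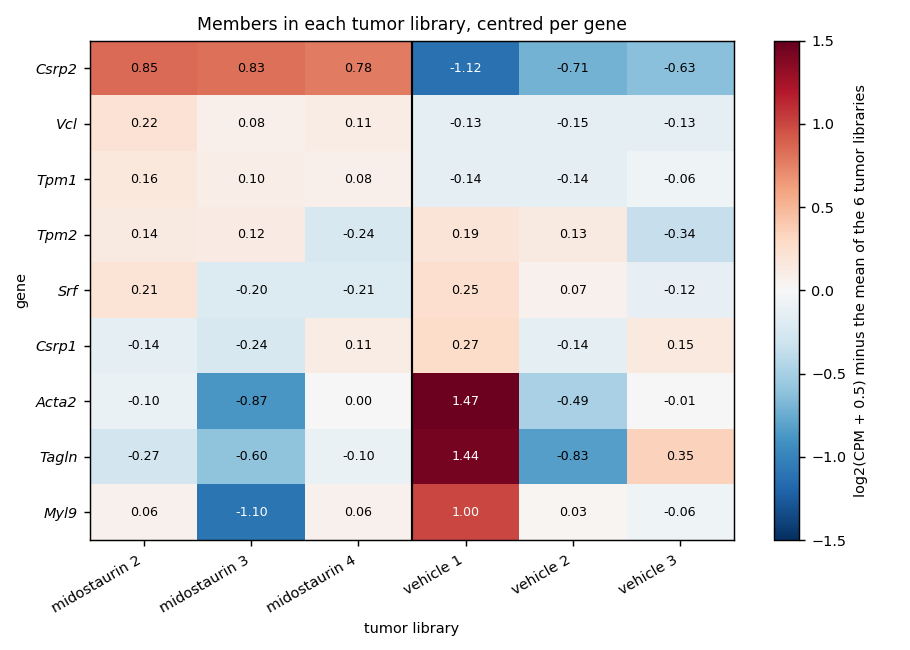
Values of log2(CPM + 0.5) minus each gene's mean over the 6 tumor libraries (colour and printed number), for the 9 members above the count filter (rows) in midostaurin and vehicle tumors (columns). Csrp2 is positive in all midostaurin tumors and negative in all vehicle tumors, while Acta2, Tagln and Myl9 are highest in vehicle tumor 1.

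Ranking genes by how near their centred profile was to that of Csrp2 (root mean square difference over the 6 tumors, 11031 genes with a mean of at least 5 CPM) gives the same picture as a description, since the profile of Csrp2 contains the contrast that chose it. Vcl came at rank 1442 with a distance of 0.70 and Tpm1 at rank 1706 with 0.72. Tpm2, Srf and Csrp1 came at ranks 6322, 8159 and 8683, and Acta2 at rank 10841 with a distance of 1.39. Tagln, Myl9 and Cnn1 lay below the minimum level for this ranking. The 5 nearest genes held no member: they were Lxn (distance 0.18), which encodes a carboxypeptidase inhibitor, Rarres1 (0.21), a retinoid-responsive gene, Cavin4 (0.22), a muscle caveolar protein gene, Egr3 (0.22), an immediate early transcription factor, and Ghr (0.27), the growth hormone receptor. Lxn measured 267 to 381 CPM in midostaurin tumors and 101 to 118 CPM in vehicle tumors, and Ghr 255 to 283 CPM in midostaurin tumors and 83.9 to 146 CPM in vehicle tumors. Over all 12 libraries, where the gap between tumors and cells enters as well, the nearest genes were Rarres1, Ngef, Ghr, Ppef1 and Cd274, at distances of 0.29 to 0.35 among 10886 genes. Tpm2 then came at rank 526, Vcl at 948, Acta2 at 2702 and Tpm1 at 4677.

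A wider list of 25 contractile and cytoskeletal SRF targets held no gene with a log2 fold change as high as that of Csrp2. That is a description only, since this contrast chose Csrp2. EdgeR called none of them in tumors, 7 had an unadjusted p below 0.05 (3 higher and 4 lower), and DESeq2 called 2 higher and 1 lower. Over all genes 19.9% had such a p and DESeq2 called 8.86%, so both counts lay near the background. The median log2 fold change over the 25 genes was -0.05. The genes with the smallest p were Ppp1r12b, a myosin phosphatase subunit, at -0.34 ± 0.09 (edgeR adjusted p = 0.115), Actn1, alpha-actinin 1 of focal adhesions, at 0.25 ± 0.07 (adjusted p = 0.148), and Cald1, caldesmon, at 0.41 ± 0.14 (adjusted p = 0.178). Myh11, the smooth muscle myosin heavy chain, measured 0.808 to 2.36 CPM in midostaurin tumors and 0.926 to 2.41 CPM in vehicle tumors. Mylk, the kinase of the regulatory light chain, measured 20.3 to 27.6 CPM in midostaurin tumors and 23.4 to 53.4 CPM in vehicle tumors.

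Immediate early genes are the other branch of SRF targets. Their median log2 fold change in tumors was 0.68 over 9 genes tested, of which edgeR called none, 7 had an unadjusted p below 0.05 (5 higher and 2 lower), and DESeq2 called 5 higher and 1 lower, against 19.9% of all genes at such a p and 8.86% called by DESeq2. Egr3 measured 15.8 to 24.3 CPM in midostaurin tumors and 4.87 to 8.39 CPM in vehicle tumors, a log2 fold change of 1.65 ± 0.25 (edgeR adjusted p = 0.0841, DESeq2 adjusted p = 1.46e-07). Nr4a1, an orphan nuclear receptor gene, measured 47.1 to 62.3 CPM in midostaurin tumors and 30.8 to 33.3 CPM in vehicle tumors, with a log2 fold change of 0.72 ± 0.12 (edgeR adjusted p = 0.0841). Egr2 had a log2 fold change of 1.39 ± 0.34 (edgeR adjusted p = 0.115) and Egr1 of 0.68 ± 0.17 (edgeR adjusted p = 0.117). Fos stood on the other side, at 23.7 to 47.8 CPM in midostaurin tumors and 42.4 to 91.8 CPM in vehicle tumors (log2 fold change -1.01 ± 0.34, edgeR adjusted p = 0.181, DESeq2 adjusted p = 0.022).

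Among the cofactors of SRF, 5 of 6 were tested in tumors and edgeR called none. Elk1 had the smallest p, with 22.3 to 24.7 CPM in midostaurin tumors and 14.2 to 19.1 CPM in vehicle tumors (log2 fold change 0.46 ± 0.13, edgeR adjusted p = 0.143, DESeq2 adjusted p = 0.0378). It was the 1 cofactor of the 5 with an unadjusted p below 0.05, near the 19.9% of all genes, and the 1 that DESeq2 called. Mrtfa, the gene of MRTF-A, measured 42.9 to 50.9 CPM in midostaurin tumors and 44.8 to 48.2 CPM in vehicle tumors. Myocd, the gene of myocardin, stayed at or below 0.152 CPM in every tumor library and had no counts in cells.

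Within the LIM-only family, Csrp2 was set beside Crip1 and Crip2, which encode small relatives with a single LIM domain or a pair of them. Crip1 measured 11.0 to 13.8 CPM in midostaurin tumors and 21.9 to 34.2 CPM in vehicle tumors, a log2 fold change of -1.21 ± 0.18 (edgeR adjusted p = 0.0841, DESeq2 adjusted p = 1.32e-06). Crip2 measured 62.7 to 74.8 CPM in midostaurin tumors and 75.8 to 101 CPM in vehicle tumors (log2 fold change -0.39 ± 0.13, edgeR adjusted p = 0.173). Both were lower with midostaurin, with an unadjusted edgeR p below 0.05. Over all genes tested, 9.43% were lower at such a p. Since this contrast chose Csrp2, the opposite directions are a description. Csrp3, the muscle LIM protein gene, had 94 counts in midostaurin tumor 3, 27 counts in vehicle tumor 1 and none in the other tumors, the same libraries that were highest for skeletal muscle markers.

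TGF-beta signalling is known to raise contractile genes in fibroblasts and pericytes, so its response genes were set beside the members. EdgeR called none of the 12 tested in tumors, 4 had an unadjusted p below 0.05, all higher, and DESeq2 called 4, all higher. Over all genes, 10.5% were higher at such a p and DESeq2 called 5.36% higher. The median log2 fold change of the list was 0.49. Smad7, an inhibitor in the pathway that its own signal induces, measured 41.6 to 47.3 CPM in midostaurin tumors and 25.3 to 29.0 CPM in vehicle tumors (log2 fold change 0.75 ± 0.09, edgeR adjusted p = 0.0654). Ltbp2, a matrix protein of the latent TGF-beta binding family, measured 18.6 to 24.5 CPM in midostaurin tumors and 6.78 to 11.2 CPM in vehicle tumors (log2 fold change 1.28 ± 0.20, edgeR adjusted p = 0.0841). Bhlhe40, a transcriptional repressor gene, had a log2 fold change of 1.08 ± 0.30 (edgeR adjusted p = 0.127).

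Cultured cells expressed 6 of the 10 members well enough to be tested, Csrp2, Csrp1, Tpm1, Tpm2, Srf and Vcl. EdgeR called 0 of the 6 in the drug contrast, 0 had an unadjusted p below 0.05, and DESeq2, limma-voom and the fit with the replicate block called 0. Over all 14538 genes tested in cells, 0.516% had an unadjusted p below 0.05, edgeR called 0%, DESeq2 called 0.0138% and the fit with the block called 0.055%. The median log2 fold change of the 6 members was -0.05, beside 0 over all genes.

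Csrp1 measured 86.4, 62.5 and 60.8 CPM in midostaurin cells 1, 2 and 3, against 89.5, 68.4 and 62.4 CPM in DMSO cells. Tpm1 measured 312, 274 and 224 CPM in midostaurin cells and 319, 272 and 232 CPM in DMSO cells. Vcl measured 202, 128 and 113 CPM in midostaurin cells and 206, 128 and 110 CPM in DMSO cells. For Tpm1 and Vcl the same-numbered libraries of the 2 treatments lay closer together than any libraries of different numbers, whereas for Csrp1 midostaurin cell 2 lay closer to DMSO cell 3 than to DMSO cell 2. Tpm2 measured 18.9, 12.4 and 10.9 CPM in midostaurin cells and 18.6, 14.6 and 13.6 CPM in DMSO cells, and Srf 60.2, 41.9 and 49.2 CPM in midostaurin cells and 66.3, 42.4 and 46.0 CPM in DMSO cells. Log2 fold changes of these 5 genes ran from -0.15 ± 0.25 for Tpm2 to -0.01 ± 0.32 for Vcl, each with an edgeR adjusted p of 1. Acta2, Tagln, Myl9 and Cnn1 were at or near 0: Acta2 had 5 counts in midostaurin cell 3 and none in the other 5 libraries, Tagln had 0, 4 and 0 counts in midostaurin cells and 3, 4 and 7 in DMSO cells, Myl9 had 6 counts in DMSO cell 2 alone, and Cnn1 had none.

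All 6 members expressed in cells were higher in number 1 of both treatments than in numbers 2 and 3. Csrp2 measured 10.8 and 13.0 CPM in number 1 and 7.15 to 7.98 CPM in numbers 2 and 3, a ratio of means of 1.59. The ratio was 1.71 for Vcl, 1.46 for Tpm2, 1.41 for Srf, 1.38 for Csrp1 and 1.26 for Tpm1. In cells the values of Csrp2 and of the other members thus split by replicate number and not by treatment. These ratios describe libraries that stood apart over many genes and carry no test. The share of all genes higher in number 1 was not computed, so no reading is made of the members as a set.

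**Figure D4:**
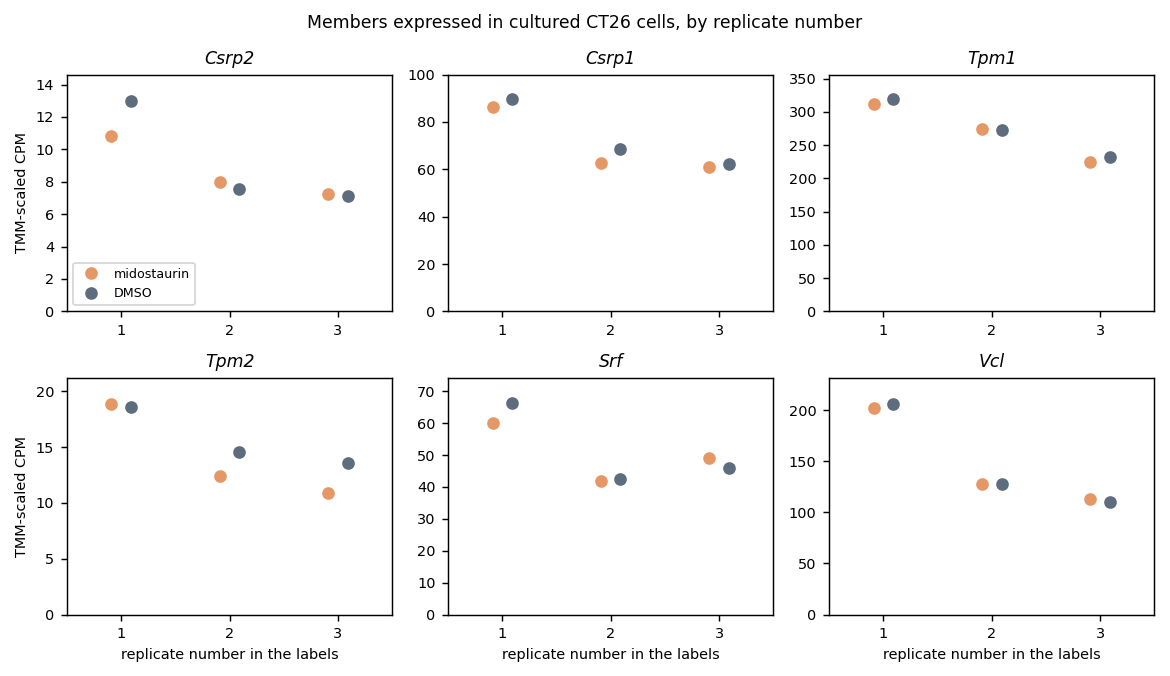
TMM-scaled CPM (y axis, from 0) of the 6 members expressed in cultured CT26 cells against the replicate number (x axis), with midostaurin and DMSO libraries side by side. Number 1 is the highest for each gene under both treatments, with Vcl at 202 and 206 CPM against 110 to 128 CPM in numbers 2 and 3.

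Whether the drug effect differed between tumors and cells was tested in 1 fit over all 12 libraries. EdgeR called 0 of the 8 members tested other than Csrp2, and 0 had an unadjusted p below 0.05. Limma-voom called 0, and DESeq2 called 0 with 1 unadjusted p below 0.05 (Acta2). The edgeR fit with the block in cells also called 0. In it 2 of these members, and 2494 of all genes, had an unadjusted p below 0.05. Of all 16965 genes tested, 6.08% had such a p in edgeR without the block. EdgeR called 0.00589%, DESeq2 0.584% and the fit with the block 0.0943%. The sizes below are from the edgeR fit without the block, whose errors include the spread between the replicate numbers of cells. The tumor effect minus the cell effect was 0.28 ± 0.34 for Vcl and 0.25 ± 0.19 for Tpm1 on the log2 scale (edgeR adjusted p = 0.976 and 0.914). It was 0.16 ± 0.32 for Tpm2, -0.10 ± 0.28 for Srf and -0.12 ± 0.26 for Csrp1, each with an edgeR adjusted p of 1. For Acta2, Tagln and Myl9 no size is given, since they lay at or close to 0 in cells.

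Setting vehicle tumors against DMSO cells shows where the members were expressed without the drug. EdgeR called 5 of the 9 members tested, all higher in vehicle tumors. Of all 16965 genes tested it called 44.2%, and 24.5% in that direction. The 5 were Csrp2, Acta2, Tagln, Myl9 and Tpm2. Of these, Acta2, Tagln and Myl9 did not pass the count filter in cells and entered this fit through the tumor libraries. Their calls as higher in tumors were thus largely set by the filter and are a description. In this comparison tissue, host cells and the separate experiments cannot be told apart, and the vehicle tumors are those of the drug contrast.

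Csrp2 averaged 35.1 ± 6.16 CPM in vehicle tumors and 9.23 ± 3.27 CPM in DMSO cells (SD, n = 3 each), a ratio of 3.8 and a log2 fold change of 1.93 ± 0.24 (edgeR adjusted p = 0.000153). Acta2 averaged 18.6 ± 14.3 CPM in vehicle tumors and had no counts in DMSO cells, at least 218-fold higher against a floor of 3 counts per library. Even the lowest vehicle tumor was at least 101-fold above that floor. Tagln averaged 5.43 ± 4.27 CPM in vehicle tumors and 0.128 ± 0.0639 CPM in DMSO cells, a ratio of 42.4. Myl9 averaged 2.69 ± 1.41 CPM in vehicle tumors and had 6 counts over the DMSO cells. No p is printed for Acta2, Tagln and Myl9, since their calls were largely set by the filter. Acta2, Tagln, Myl9 and Cnn1 thus had at most 7 counts in any cell library, whereas Csrp2 had 251 to 514 counts in each DMSO cell library.

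Tpm2 averaged 31.0 ± 5.91 CPM in vehicle tumors and 15.6 ± 2.63 CPM in DMSO cells (log2 fold change 0.99 ± 0.23, edgeR adjusted p = 0.00546). The remaining members tested were closer: log2 fold changes were 0.42 ± 0.24 for Vcl, 0.30 ± 0.18 for Csrp1, 0.28 ± 0.20 for Srf and -0.20 ± 0.13 for Tpm1 (edgeR adjusted p = 0.183, 0.202, 0.28 and 0.252). With the replicate number of the cells as a block, Vcl (0.48, adjusted p = 8.67e-05), Csrp1 (0.32, adjusted p = 0.0425) and Tpm1 (-0.18, adjusted p = 0.012) were also called, where that fit called 57.9% of all genes. Without DMSO cell 1, Vcl (0.74, adjusted p = 0.0173) and Srf (0.50, adjusted p = 0.0493) were called. Markers of several host cell types were also higher in vehicle tumors: edgeR called 7 of 8 pericyte markers, 8 of 11 fibroblast markers, 8 of 9 endothelial markers and 10 of 10 macrophage markers. Only 2 pericyte, 5 fibroblast, 2 endothelial and 4 macrophage markers passed the count filter in cells. The others entered through the tumor libraries, so their direction was largely set by the filter. Rgs5, a pericyte marker, measured 10.5 to 21.7 CPM in vehicle tumors and at most 0.0854 CPM in DMSO cells. Their part in the result was not tested.

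Levels of different genes can be compared only per length, here as CPM per kilobase of exon. In midostaurin tumors Csrp2 was the highest member at 50.4 ± 1.12, above Tpm1 at 43.2 ± 1.16 and Csrp1 at 40.6 ± 5.28, whose ranges overlapped (SD, n = 3 each). Below them came Vcl at 29.3, Srf at 19.8, Tpm2 at 10.7 and Acta2 at 4.6, each apart from its neighbours, and Tagln at 1.34 overlapped Myl9 at 1.33. In vehicle tumors Csrp2 stood at 16.2 ± 2.84, after Csrp1 at 46.3 ± 6.60, Tpm1 at 36.9 ± 1.14, Vcl at 24.3 and Srf at 21.6, and above Tpm2 at 10.7. Vcl and Srf overlapped there, as did Tpm2, Acta2, Tagln and Myl9, each with its neighbour in that order. In midostaurin cells Csrp2 stood at 3.99 ± 0.85 and overlapped Tpm2 at 4.83, and in DMSO cells it stood at 4.25 ± 1.51 and overlapped Tpm2 at 5.37. Under both treatments it lay below Tpm1, Csrp1, Vcl and Srf.

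The ratio of Csrp2 to Csrp1, both per kilobase, sets the pair of paralogs against each other in every library. It was 1.32, 1.39 and 1.06 in midostaurin tumors 2, 3 and 4, and 0.249, 0.444 and 0.381 in vehicle tumors 1, 2 and 3. In cells it was 0.112, 0.115 and 0.108 with midostaurin and 0.131, 0.0992 and 0.103 with DMSO. Csrp2 thus exceeded Csrp1 per length in every midostaurin tumor and in none of the other 9 libraries. Against Acta2 the ratio was 9.84, 17.1 and 8.75 in midostaurin tumors and 0.81, 4.41 and 3.28 in vehicle tumors. These ratios contain the contrast that chose Csrp2 and are a description.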

How the data were processed

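Poly(A)-selected libraries were made with a directional kit, per the labels' protocols. The authors deposited gene counts as whole numbers, in separate tables for tumors and cells. The submitters' processing notes name FastQC 0.11.2, Bowtie2 2.3.4, RSEM and the mm10 build. The RSEM version, the annotation and strand setting are not given in the sources used here, and RSEM estimates may have been rounded before deposit.

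Counts were tested as deposited with edgeR 4.0.16 (R 4.3.3): filterByExpr, TMM scaling, quasi-likelihood F-test, and Benjamini-Hochberg adjustment over all genes tested with a threshold of 0.05. Tumors and cells were fitted apart. The difference of the responses, and vehicle tumors against DMSO cells, came from 1 fit over all 12 libraries with a mean per group. DESeq2 1.42.0, limma-voom (limma 3.58.1), other scalings, no filter on low counts, a replicate block and leaving out each library were alternatives. The tests were checked on simulated counts. CPM use TMM scaling over the 12 libraries, which moved a library's log2 level by at most 0.04 relative to scaling within its experiment.

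Symbols were found for 99.7% of 55335 identifiers, and positions and exon lengths come from GENCODE M21. The tumor table numbers the midostaurin columns 2 to 4 while the labels number them 1 to 3. Column 4 was used only as a member of its group and is called midostaurin tumor 4. All value columns were mapped. In cells, libraries with the same number deviated together from their group means, with correlations over genes of 0.9, 0.72 and 0.7, so the numbers pair the libraries, by the data and not by the labels. In tumors numbers 2 and 3 gave 0.15 and -0.19, which does not pair them.

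The members and gene lists were chosen with earlier results of these data known. All 10 members are named. From 12 other lists, a gene could be named where it had one of the 3 smallest p of its list in the tumor drug contrast or was called in any contrast, and not all such genes are. Of genes like Csrp2, the 5 with the nearest centred log2(CPM + 0.5) profile are named, among genes with a mean of at least 5 CPM, leaving out predicted genes. Other genes, namely Epcam, Csrp3, Myocd, Higd1b and the genes that overlap members, were named after their values were seen. Floors of 3 counts cover counting error only.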

Additional observations from a re-analysis of the deposited data

How the results depend on the processing

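In tumors edgeR called 7 genes, against 1426 with DESeq2, 16 with limma-voom, 0 without the filter on low counts and 0 to 1 when 1 library was left out. Of the members other than Csrp2 it called 0, against 2 with DESeq2. In cells it called 0 genes (75 with an unadjusted p below 0.05), against 2 with DESeq2, 2 with limma-voom and 1 in a fit over all 12 libraries. For the difference of the responses it called 1 gene, against 99 with DESeq2 and 1 to 6 when 1 library was left out (6 without midostaurin tumor 4). Between vehicle tumors and DMSO cells, leaving out 1 library gave 6007 to 8072 genes and 5 to 7 members. The causes were not tested.

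A fit with the replicate block gave 0 called genes in tumors, where the numbers do not pair the libraries. It gave 8 in cells, no member among them. For the difference it gave 16, and 0 of the 8 members tested other than Csrp2 were called. Between vehicle tumors and DMSO cells it called 8 members.

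Directions that turned belonged to members with small log2 fold changes. In tumors Tpm2 turned to -0.03 under upper-quartile scaling and ranged from -0.13 to 0.13 when 1 library was left out, and Srf turned to 0.03 with the replicate block. In cells, leaving out 1 library gave -0.28 to 0.24 for Csrp2, -0.25 to 0.10 for Csrp1, -0.14 to 0.10 for Tpm1, -0.43 to 0.00 for Tpm2, -0.18 to 0.19 for Srf and -0.30 to 0.31 for Vcl. For the difference it gave -0.29 to 0.06 for Csrp1, -0.32 to 0.05 for Srf and -0.04 to 0.57 for Vcl. With 3 libraries a group and 20 to 170 counts per tumor for Myl9, changes of low members below their errors were not detectable.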
